A study of Homo sapiens with 5 samples.

Results

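DLX genes encode homeobox transcription factors, and their transcripts were followed here through the differentiation of human pluripotent stem cells into neurons that express GNRH1, the gene for gonadotropin-releasing hormone. The genes described are DLX1, DLX2, DLX3, DLX4, DLX5, DLX6 and the long non-coding RNA DLX6-AS1. They were chosen by symbol and make up 7 of the 36601 genes listed for D0, D5 and D10 and 7 of the 33538 genes listed for D22, D24 and D26, and all 7 were listed in each of the 8 conditions.

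The cells were WA09, an established line of human embryonic stem cells of wild-type genotype, profiled by droplet scRNA-seq, which counts transcripts from their 3′ ends as unique molecular identifiers (UMIs). D0 was undifferentiated. D5_dSMADi and D10_dSMADi received dorsomorphin and SB431542, which block BMP and TGF-beta receptor signalling to SMAD proteins, and D5_XAV939 and D10_XAV939 received XAV939 in addition, an inhibitor of Wnt signalling that stabilises axin. D22, D24 and D26 had dual SMAD inhibition without XAV939 up to D10, then FGF8 with a freeze and thaw in that phase, and then DAPT, a gamma-secretase inhibitor that blocks Notch signalling. These 5 early conditions were tagged and pooled in 1 droplet run, whereas D22, D24 and D26 were 1 library each. No condition had a replicate, so no test between conditions was possible and the intervals below are 95% intervals that cover counting error only.

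In vertebrates the DLX genes lie in convergent pairs, and the members of a pair often share enhancers and domains of expression. In the embryonic forebrain DLX1, DLX2, DLX5 and DLX6 are known for their role in the subpallium, where DLX1 and DLX2 act in progenitors and migrating precursors of GABAergic neurons and lie upstream of DLX5 and DLX6. DLX3 and DLX4 are better known from epidermis, placenta and the branchial arches, and DLX5 also marks placodal ectoderm.

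After filtering, 1009 to 2815 cells per early condition and 9523, 9107 and 11056 cells of D22, D24 and D26 were kept. Median UMIs per cell were 24290.5 to 69455 in the early conditions and 12179, 7180 and 8485 at D22, D24 and D26. In each pair of conditions 0 to 37 cell barcodes were shared, and in every tagged barcode the tag of its label was the highest. The labels give neural progenitor for the early pool and neuron for the late libraries. By markers that excluded the DLX genes, 1007 of the 1009 D0 cells were pluripotent-like. At D22, 63.2% of the cells were neural precursors by markers (NNP-like) and 19.6% dividing progenitors (PNP-like), and at D24 and D26 85.2% and 77.9% resembled the glutamatergic neurons of the study (Glut-like). Cells with the markers of neurons that hold GNRH1 and GABAergic genes (GnRH-GABA-like) were 40 (0.420%), 531 (5.83%) and 1753 (15.9%) at D22, D24 and D26.

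The 6 coding genes formed 3 convergent pairs in the GRCh38 annotation (GENCODE). DLX1 (ENSG00000144355) lies on the plus strand at chr2:172084740-172089677 and DLX2 (ENSG00000115844) on the minus strand at chr2:172099438-172102900, with 9760 bases between them. DLX6 (ENSG00000006377) lies on the plus strand at chr7:97005553-97011040 and DLX5 (ENSG00000105880) on the minus strand at chr7:97020396-97024950, 9355 bases apart. DLX4 (ENSG00000108813) at chr17:49968588-49974959 and DLX3 (ENSG00000064195) at chr17:49990005-49995224 were 15045 bases apart. DLX6-AS1 (ENSG00000231764) spans chr7:96955141-97014088 on the minus strand and covers all 5488 bases of DLX6, of which 759 bases are exonic in both genes. Whether the counting used strand is not given in the sources used here. If it did not, reads of DLX6 and DLX6-AS1 from the shared bases could not be told apart, and values of these 2 genes carry that limit.

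For the neighbours DLX1 and DLX2 and the overlapping DLX6 and DLX6-AS1, which the comparisons below set side by side, the stretch from 250 bases before to 50 bases after the RefSeq transcription start is shown (GRCh38.p14); the other 3 genes were not in the table used. Capitals mark CCAAT, on either strand (ATTGG on the other), and TAATTA, a palindrome that holds the core of homeodomain sites. The windows are chr2:172085257-172085556 on the plus strand for DLX1, chr2:172102851-172103150 on the minus strand for DLX2, chr7:97005303-97005602 on the plus strand for DLX6 and chr7:97014016-97014315 on the minus strand for DLX6-AS1.
DLX1: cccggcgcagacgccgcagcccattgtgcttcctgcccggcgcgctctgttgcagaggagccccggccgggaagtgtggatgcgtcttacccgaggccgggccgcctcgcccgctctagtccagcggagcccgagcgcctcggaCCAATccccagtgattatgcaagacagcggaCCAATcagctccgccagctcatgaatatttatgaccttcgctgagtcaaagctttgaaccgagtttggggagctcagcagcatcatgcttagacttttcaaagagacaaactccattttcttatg
DLX2: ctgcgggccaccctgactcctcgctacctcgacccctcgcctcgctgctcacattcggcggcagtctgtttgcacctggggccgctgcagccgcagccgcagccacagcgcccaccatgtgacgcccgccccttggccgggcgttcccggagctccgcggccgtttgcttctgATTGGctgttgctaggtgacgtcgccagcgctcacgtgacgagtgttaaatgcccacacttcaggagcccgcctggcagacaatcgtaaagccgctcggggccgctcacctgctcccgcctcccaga
DLX6: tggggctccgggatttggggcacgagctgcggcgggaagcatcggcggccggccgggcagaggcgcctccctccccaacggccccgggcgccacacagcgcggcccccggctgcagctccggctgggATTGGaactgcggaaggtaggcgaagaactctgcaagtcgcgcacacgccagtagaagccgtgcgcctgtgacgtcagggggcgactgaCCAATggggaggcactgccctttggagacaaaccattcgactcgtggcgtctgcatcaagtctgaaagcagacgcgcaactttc
DLX6-AS1: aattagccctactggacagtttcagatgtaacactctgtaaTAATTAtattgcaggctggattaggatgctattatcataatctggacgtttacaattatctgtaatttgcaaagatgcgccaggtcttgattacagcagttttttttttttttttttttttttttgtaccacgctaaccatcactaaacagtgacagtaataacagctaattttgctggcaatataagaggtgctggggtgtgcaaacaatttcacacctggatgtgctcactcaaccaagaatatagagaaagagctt
CCAAT stood at -106 and -75 from the start of DLX1, at -77 in DLX2 and at -123 and -34 in DLX6, and DLX6-AS1 held none. This motif occurs in 34.6% of the 35116 RefSeq promoters of the same length and was chosen after these sequences were read. TAATTA stood in DLX6-AS1 alone, at -209, against 4.84% of all promoters. CAGCTG, a core letter string of bHLH sites found in 17.9% of promoters, and TATAAA, found in 11.5%, were in none of the 4 windows on either strand. The GC content was 59.0%, 67.7% and 67.0% in DLX1, DLX2 and DLX6 and 36.0% in DLX6-AS1. A match or its absence describes these letters only.

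From D0 to D10 all 7 genes were near the limit of detection, and 5 of them were high at D22 to D26. The highest early count of any member was 58 UMIs, of DLX4 at D5_XAV939. Levels below are CPM (counts per 1000000 UMIs) summed over the cells kept, and levels of a gene are compared between conditions and not between genes of different length. At D0 the UMIs of DLX1, DLX2, DLX3, DLX4 and DLX5 were 6, 2, 12, 30 and 1, and DLX6 and DLX6-AS1 had 0 in 1009 cells, which allows a share of up to 0.297% of cells with a UMI (3 counts of the total).

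DLX4, known from placenta, was detected in every early condition and nearly or wholly undetected later. Its level was 0.395, 0.602, 0.669, 0.406 and 0.430 CPM at D0, D5_dSMADi, D5_XAV939, D10_dSMADi and D10_XAV939. At D22 it had 4 UMIs in 9523 cells, and at D24 and D26 it had 0. DLX3, which acts in epidermal differentiation, was at 0.158, 0.289, 0.265, 0.140 and 0.396 CPM in the same early conditions and at 0.0843, 0.0428 and 0.0101 CPM at D22, D24 and D26, the last of these from 1 UMI. No cell of any condition held more than 2 UMIs of DLX3 or DLX4.

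**Figure D1:**
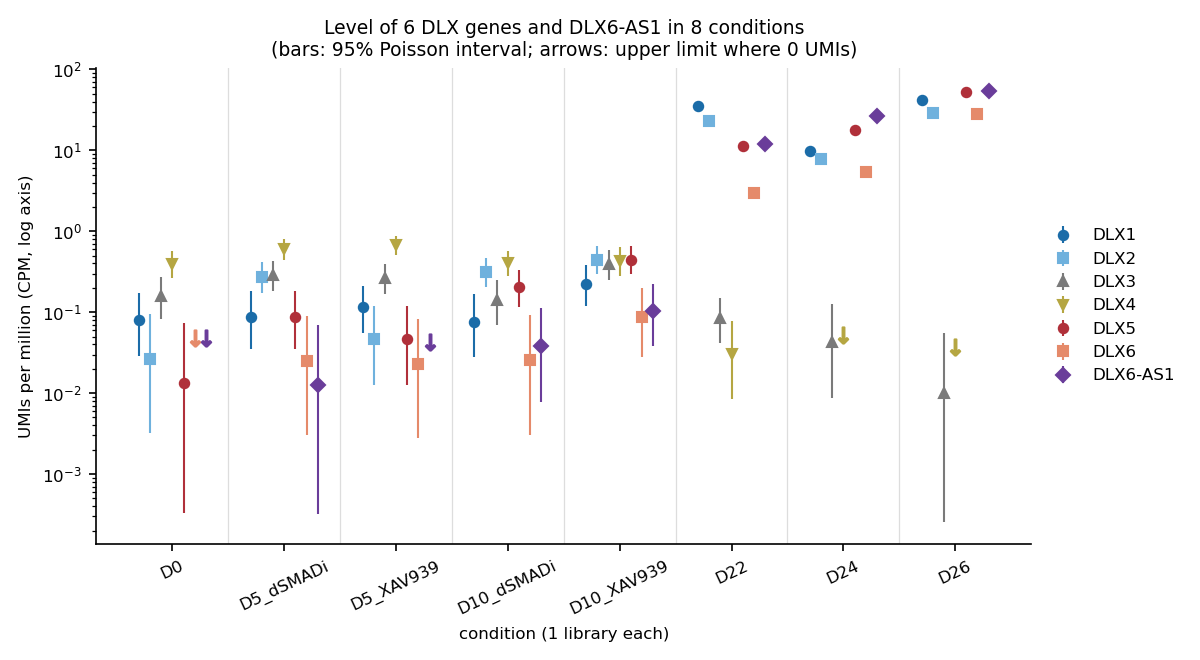
Level of each gene in CPM on a log axis (vertical) in the 8 conditions (horizontal), with 95% Poisson intervals as bars and arrows at the upper limit where a gene had 0 UMIs. DLX1, DLX2, DLX5, DLX6 and DLX6-AS1 were at 0 to 0.448 CPM through D10 and at 2.98 to 54.8 CPM from D22, whereas DLX3 and DLX4 were higher early than late.

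At D5, DLX2 was the 1 DLX gene that differed between the conditions with and without XAV939 by more than counting error. Of the 5 members with more than 3 UMIs in either condition, DLX2 was lower, with 4 UMIs in D5_XAV939 against 22 in D5_dSMADi (log2 ratio -2.58, interval -4.58 to -1.02). It was the 1 member past 2-fold, and 5.54% of the 21869 genes counted were as much lower and 5.75% as much higher. Of the 22 UMIs of DLX2 in D5_dSMADi, 17 (77.3%) lay in 2412 of the 2419 cells, and the rest lay in the few cells left. The interval of DLX2 takes these UMIs as independent. The intervals of DLX1, DLX3, DLX4 and DLX5 included no change.

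At D10, 5 of the 7 genes were at least 2-fold higher with XAV939 and none was 2-fold lower. DLX1 had 13 against 6 UMIs (0.224 and 0.0762 CPM, log2 ratio 1.56, interval 0.06 to 3.24). DLX3 had 23 against 11 UMIs (log2 ratio 1.50, interval 0.41 to 2.69), and DLX5 had 26 against 16 UMIs (log2 ratio 1.14, interval 0.19 to 2.14). The log2 ratios of DLX6 (1.76) and DLX6-AS1 (1.44) rested on 5 against 2 and 6 against 3 UMIs and had intervals that included 0. DLX2 (0.50) and DLX4 (0.08) stayed under 2-fold.

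The background of this comparison was 5.43% of 22176 genes higher and 10.6% lower by 2-fold. Among the 5701 genes with as few UMIs as the members (7 to 57 over both conditions), 10.6% were at least 2-fold higher. At these counts 1 cell could carry much of a value: the 16 UMIs of DLX5 in D10_dSMADi were in 7 cells, with 5 in the highest, and 4 of the 25 UMIs of DLX2 in that condition were in 3 of the 17 cells named neuronal-like. The non-neural ectoderm, placode and crest list, checked because DLX5 and DLX3 also mark such cells, had 13 of 16 genes with more than 3 UMIs at D10, of which 4 were higher and 4 lower with XAV939 (median log2 ratio -0.01). KRT5 was at 0 UMIs and TP63 at 0 or 1 in both D10 conditions. TFAP2A was at 10.2 CPM with and 0.800 CPM without XAV939, and its part in the DLX values was not tested. Neuronal genes were also higher with XAV939 at D10. Of the 9 genes of the stage list, from dividing progenitors to neurons, 4 were at least 2-fold higher and 0 lower (median log2 ratio 0.50), with STMN2, a gene of neurons, at 113 against 20.2 CPM. Of the 5 glutamatergic genes 3 were higher and 0 lower (median log2 ratio 1.36). Neuronal-like cells were 61 with and 17 without XAV939, and 2 of the 13 UMIs of DLX1 and 2 of the 26 of DLX5 in D10_XAV939 were in them.

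Between D22 and D26 the library sums of the genes of chromosome 2 and of chromosome 7 took different courses. Inside the cell classes described below this difference was not found from D22 to D24. DLX1 was at 35.5 CPM (34.4 to 36.5) at D22, 9.92 CPM (9.20 to 10.7) at D24 and 41.9 CPM (40.6 to 43.1) at D26. DLX2 was at 23.0, 7.80 and 29.0 CPM on the same days. Both were thus lowest at D24 and returned by D26 to a level near that of D22. DLX5 was at 11.2 CPM (10.6 to 11.8), 17.6 CPM (16.7 to 18.6) and 52.5 CPM (51.1 to 54.0) at D22, D24 and D26. DLX6 was at 2.98, 5.47 and 27.8 CPM, and DLX6-AS1 at 11.9, 26.3 and 54.8 CPM. The library sums of all 3 genes of chromosome 7 were higher on each later day.

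From D22 to D24 the log2 ratio was -1.84 (-1.95 to -1.72) for DLX1 and -1.56 (-1.70 to -1.43) for DLX2, against 0.65, 0.88 and 1.14 for DLX5, DLX6 and DLX6-AS1. DLX6-AS1 was the 1 member of 7 at least 2-fold higher, where 15.3% of 21604 genes were. DLX1, DLX2 and DLX4 were lower by 2-fold, where 21.1% of genes were, although DLX4 was counted at 4 against 0 UMIs.

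From D24 to D26 all 5 members with more than 3 UMIs were at least 2-fold higher, where 14.4% of 20913 genes were, and none of them was lower, where 8.15% were. Their log2 ratios were 2.08 for DLX1, 1.90 for DLX2, 1.58 for DLX5, 2.34 for DLX6 and 1.06 for DLX6-AS1. With median-ratio size factors, which lower every log2 ratio of this comparison by 0.27 (log2 shift -0.27), DLX6-AS1 was at 0.80 and 4 of the 5 were past 2-fold. Over the whole span from D22 to D26, DLX5 (2.23), DLX6 (3.22) and DLX6-AS1 (2.20) were higher by 2-fold, where 22.5% of 22121 genes were, and DLX3 and DLX4, at 11 and 4 against 1 and 0 UMIs, were lower, where 19.4% were. DLX1 (0.24) and DLX2 (0.33) differed by less than 2-fold. DLX6 had the widest change of the 5, 9.32-fold (interval in log2 3.07 to 3.38).

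The number of cells with a UMI followed the levels. DLX1 was detected in 1018 cells (10.7%) at D22, 325 (3.57%) at D24 and 1354 (12.2%) at D26, and DLX2 in 1044, 302 and 1275. DLX5 was detected in 322 (3.38%), 481 (5.28%) and 1582 (14.3%) cells, DLX6 in 172, 248 and 1263 and DLX6-AS1 in 143, 398 and 1212. Since D24 cells were shallower, each cell was also thinned to 1500 UMIs, which gave 3.74%, 1.07% and 4.82% of cells for DLX1 and 1.26%, 2.09% and 5.62% for DLX5. The order of the days was the same before and after thinning for both genes.

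The UMIs of a gene were spread unevenly over its cells. At D22 DLX6-AS1 had a median of 6 UMIs in its 143 positive cells and up to 63 in 1 cell, and 96.4% of its UMIs lay in the top 1% of cells (95 cells). For DLX2 that share was 27.3% on the same day, with a median of 2 UMIs in 1044 cells and a highest value of 15. By D26 the share in the top 1% of cells was 34.6% for DLX6-AS1 and 19.8% for DLX5. At D22 DLX6-AS1 was thus concentrated in fewer cells than DLX2, and by D26 it was spread over more cells.

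A level summed over a library cannot tell fewer DLX cells from less DLX RNA per cell, so the levels were also taken by cell class. Classes came from clusters of D22, D24 and D26 made without the DLX genes, GNRH1 and the other gene lists described here, and their names rest on 10 markers each from the study's own cluster tables. The GnRH-GABA-like class held 2 clusters, cluster 8 (79.8% of its cells from D24) and cluster 4 (97.7% from D26). The D24 and D26 values of this class therefore come mostly from different clusters. SCGN, RASD1 and RALYL of the fixed markers were among the 10 leading genes of cluster 4, and FGF19 and RALYL among those of cluster 8.

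At D22 most DLX RNA was in precursors, and from D24 most of it was in GnRH-GABA-like cells. Of the DLX1 UMIs at D22, 77.4% were in NNP-like and 16.0% in PNP-like cells and 2.79% in the 40 GnRH-GABA-like cells. For DLX6-AS1 these shares were 46.3%, 3.68% and 49.3%, so the antisense transcript was the member most shifted to the 40 neurons. At D24 and D26 the GnRH-GABA-like class held 91.1% and 94.8% of the DLX1 UMIs, 90.7% and 96.5% of those of DLX5 and 91.3% and 97.0% of those of DLX6-AS1. For DLX2 these shares were 84.6% and 93.6%, and for DLX6 89.8% and 97.9%.

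Within the NNP-like cells of D22 the DLX genes were in 1 of 2 clusters. Cluster 3 (1869 cells of D22) had 148 CPM of DLX1 (143 to 153), 40.7 CPM of DLX5 and 25.2 CPM of DLX6-AS1. Cluster 2 (4148 cells) had 1.54 CPM of DLX1 (1.22 to 1.92), 1.25 CPM of DLX5 and 2.33 CPM of DLX6-AS1. Although the members were left out of the clustering, DLX1 was among the 10 leading genes of cluster 3. The leading genes of cluster 2 included NEUROD4, NHLH1 and NEUROG1, which are neurogenic bHLH factors.

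The levels of all 5 genes differed between PNP-like, NNP-like and GnRH-GABA-like cells of D22. In PNP-like cells of D22, DLX1 and DLX2 were at 22.8 and 21.6 CPM and DLX5, DLX6 and DLX6-AS1 at 3.64, 1.45 and 1.76 CPM. In NNP-like cells the 5 genes were at 47.4, 27.6, 13.6, 3.51 and 9.51 CPM. In the 40 GnRH-GABA-like cells they were at 283, 253, 606, 143 and 1678 CPM. Each of the 5 genes was thus higher in NNP-like than in PNP-like cells and highest in GnRH-GABA-like cells, with intervals that did not overlap. This did not hold for the Glut-like neurons. In cluster 1, with 665 Glut-like cells of D22, the 5 genes were at 0.922, 0.659, 1.32, 0.264 and 0.264 CPM, below their PNP-like levels. The NNP-like levels lay between those of cluster 3, which were higher (148 CPM of DLX1), and those of cluster 2. In cluster 2, which held most NNP-like cells, DLX1, DLX2, DLX5 and DLX6 (1.54, 0.887, 1.25 and 0.289 CPM) were below their PNP-like levels.

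In Glut-like cells none of the 5 exceeded 1.69 CPM on any day, and 3.06%, 1.15% and 3.25% of these cells held a UMI of any of the 5 at D22, D24 and D26. IRX-like cells, named for the Iroquois homeobox genes, held more, with 22.7 CPM of DLX1 and 19.9 CPM of DLX2 at D26. These came from few cells, since 14 of the 271 IRX-like cells (5.17%) held DLX1 and 11 (4.06%) held DLX2. In GnRH-GABA-like cells 40 of 40, 505 of 531 (95.1%) and 1718 of 1753 (98.0%) held at least 1 of the 5. All 5 were found together in 20 (50.0%), 62 (11.7%) and 488 (27.8%) of them. Free RNA in the droplets was not measured here, and the Glut-like shares are given for comparison. Of the Glut-like cells 1 at D24 and 4 at D26 held all 5 genes, and in cluster 1 at D24 89 UMIs of DLX6-AS1 lay in 21 cells. Thinned to 1500 UMIs, DLX5 was in 31.8% of GnRH-GABA-like and 0.142% of Glut-like cells at D24 and in 34.6% and 0.232% at D26.

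**Figure D2:**
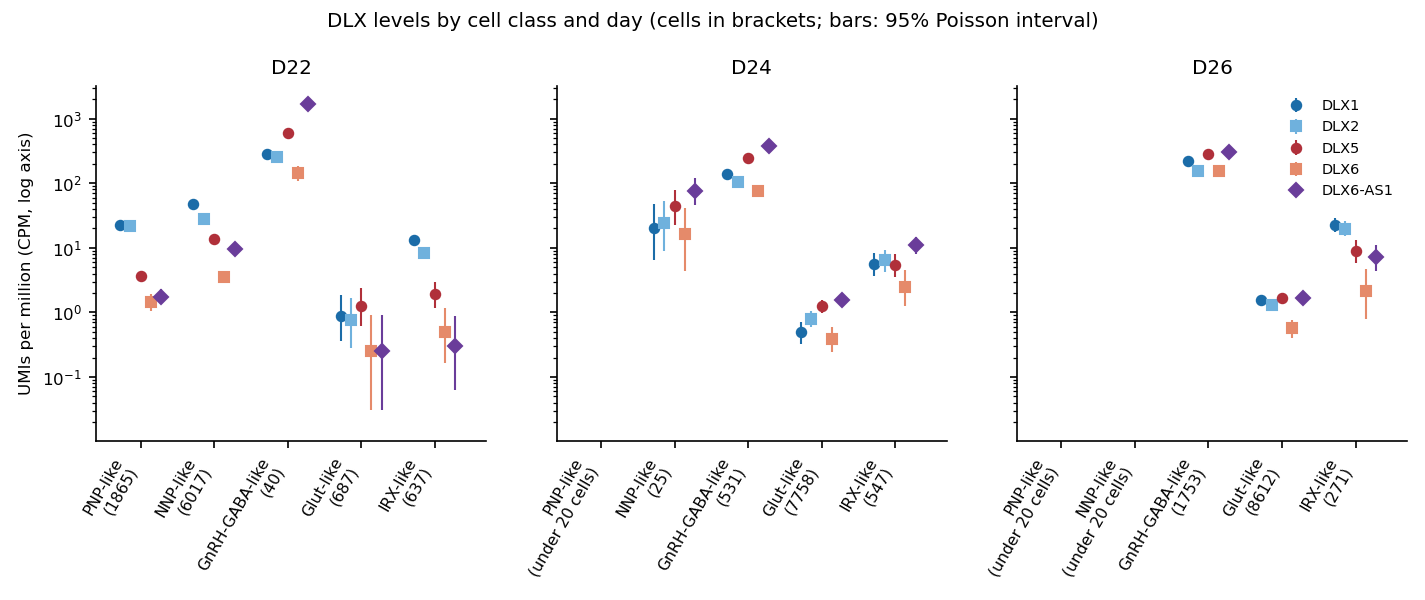
Level of 5 genes in CPM on a log axis (vertical) by cell class (horizontal, cells in brackets) at D22, D24 and D26, with 95% Poisson intervals as bars. On every day GnRH-GABA-like cells had the highest level of each gene.

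Within the GnRH-GABA-like class the levels of D24 were below those of D22. The log2 ratio of D24 over D22 was -1.01 for DLX1, -1.29 for DLX2, -1.28 for DLX5, -0.90 for DLX6 and -2.17 for DLX6-AS1 (-2.29 to -2.04), from 531 against 40 cells. Over the same step GNRH1 went from 1484 to 16829 CPM in this class, a log2 ratio of 3.50. All other cells as a group had lower log2 ratios for DLX1 (-5.19) and DLX2 (-4.12) than for DLX5 (-2.38), DLX6 (-2.07) and DLX6-AS1 (-1.30). DLX1 had 129 UMIs in the class and 4496 in all other cells at D22, and 634 and 62 at D24. DLX2 had 115 and 2890 UMIs at D22 and 463 and 84 at D24. The lower library sums of DLX1 and DLX2 at D24 thus lay in the cells outside the class. There the PNP-like and NNP-like cells were 1865 and 6017 at D22 and 5 and 25 at D24. DLX5, DLX6 and DLX6-AS1 had 276, 65 and 764 UMIs in the class at D22 and 1121, 345 and 1681 at D24. In all other cells they had 1187, 324 and 787 UMIs at D22 and 115, 39 and 161 at D24. Their higher library sums at D24 thus lay in the class, although its level of each gene was lower.

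From D24 to D26 the class grew from 531 to 1753 cells, while its levels moved less than the library sums. DLX1 went from 141 to 224 CPM (log2 ratio 0.66, 0.54 to 0.79) and DLX2 from 103 to 153 CPM (0.57). DLX6 went from 76.7 to 153 CPM (1.00, 0.84 to 1.16). DLX5 went from 249 to 285 CPM (0.20), and DLX6-AS1 went from 374 to 300 CPM (-0.32, -0.40 to -0.24). Inside cluster 8 DLX1 was at 142 CPM (131 to 154) at D24 and 298 CPM (251 to 352) at D26, and DLX2 at 103.8 and 246 CPM, but the 93 cells of D26 in this cluster were shallower (a median of 3924 UMIs against 8004 at D24), and the part of depth in these values, those of DLX6-AS1 included, was not tested. In cluster 4 DLX1 was at 118 and 222 CPM and DLX2 at 89.3 and 151 CPM. The lower class level of DLX6-AS1 at D26 was not found inside its clusters. In cluster 8 DLX6-AS1 was at 382 CPM (364 to 401) at D24 and 519 CPM (456 to 588) at D26, from 499 and 93 cells, and in cluster 4 at 227 CPM (172 to 295) and 294 CPM (285 to 302), from 32 and 1660 cells. DLX6 was at 75.1 and 88.3 CPM in cluster 8 and at 106 and 155 CPM in cluster 4. GAD2, which makes GABA from glutamate, went from 280 to 195 CPM in the class, and was at 283 and 280 CPM in cluster 8 and at 235 (179 to 304) and 193 CPM in cluster 4.

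Cells that held 1 gene of a convergent pair often held the other. At D22, 722 of the 1018 DLX1 cells held DLX2 (70.9%), at D24 181 of 325 (55.7%) and at D26 993 of 1354 (73.3%). Of the cells without DLX1, 3.79%, 1.38% and 2.91% held DLX2. Over all cells the share with DLX2 was thus higher in cells with DLX1 than without it on each day. Inside the GnRH-GABA-like class, with each cell thinned to 5000 UMIs, the difference was smaller, with DLX2 in 43.3% of cells with and 23.0% without DLX1 at D24 and in 60.6% and 35.2% at D26.

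DLX6 was detected in fewer cells than DLX5, so the shares of DLX6 and DLX5 cells that held the other gene were unequal. Of the DLX6 cells, 148 of 172 (86.0%) at D22, 214 of 248 (86.3%) at D24 and 1099 of 1263 (87.0%) at D26 held DLX5. Of the DLX5 cells, 46.0%, 44.5% and 69.5% held DLX6 on the same days. The share of DLX5 cells with DLX6 was higher at D26 than on both earlier days. After each cell was thinned to 5000 UMIs, which left out 122, 966 and 1238 cells of D22, D24 and D26, DLX6 cells held DLX5 in 78.6%, 76.1% and 73.4% and DLX5 cells held DLX6 in 33.6%, 33.6% and 52.0%. The order of the days for DLX6 cells with DLX5 was thus not the same before and after thinning. Inside the GnRH-GABA-like class DLX5 was in 76.9% and 74.9% of thinned DLX6 cells at D24 and D26. Of the class cells without DLX6, 62.8% and 65.4% held DLX5. In the other direction DLX6 was in 35.1% and 54.4% of the class cells with DLX5 and in 21.5% and 43.0% of those without. The thinned shares of DLX1 cells with DLX2 were 58.9%, 43.6% and 59.3%.

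The overlap across the pairs changed between D22 and D24. Thinned to 5000 UMIs, 25.4% (22.2% to 28.9%) of DLX1 cells held DLX5 at D22, 69.1% (62.7% to 74.9%) at D24 and 71.2% (68.2% to 74.0%) at D26. In the other direction 71.0%, 45.3% and 59.0% of DLX5 cells held DLX1. At D22 the cells with DLX5 were mostly a subset of those with DLX1 or DLX2, and at D24 the DLX1 cells were mostly a subset of those with DLX5. Among GnRH-GABA-like cells alone, 71.6% and 73.9% of DLX1 cells held DLX5 at D24 and D26, and 63.4% and 65.0% of the cells without DLX1 did. Inside the class DLX5 differed less between cells with and without DLX1 than over all cells.

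DLX6-AS1 was found with DLX5 more than with DLX6. Thinned to 5000 UMIs, 85.6%, 69.5% and 75.2% of DLX6-AS1 cells held DLX5 at D22, D24 and D26 (86.7%, 82.9% and 87.3% before thinning), and 48.1%, 32.6% and 49.7% held DLX6, which had fewer UMIs. Cells with DLX6-AS1 and no DLX6 UMI were therefore common on each day. Inside the GnRH-GABA-like class DLX6 was in 33.4% of thinned cells with and 25.97% without DLX6-AS1 at D24. At D26 these shares were 52.0% and 49.9%, so they were close. DLX5 was in 71.9% and 59.1% of the same groups at D24 and in 79.4% and 59.8% at D26. DLX5 was also detected in more thinned class cells than DLX6 (322 against 147 at D24, 1097 against 797 at D26).

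**Figure D3:**
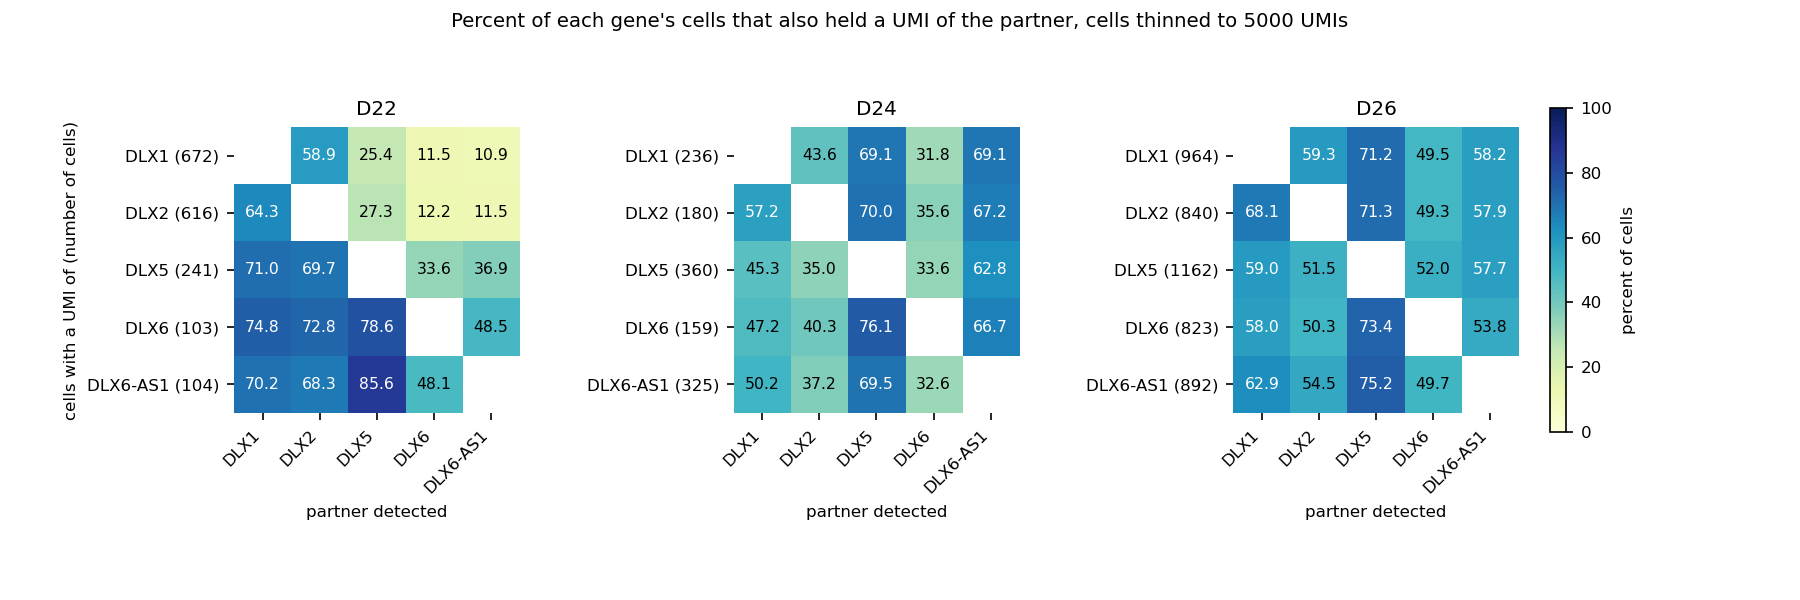
Percent of the cells with a UMI of 1 gene (vertical, number of cells in brackets) that also held the partner (horizontal) at D22, D24 and D26, each cell thinned to 5000 UMIs. At D22 10.9% to 27.3% of DLX1 or DLX2 cells held a gene of chromosome 7, and at D26 49.3% to 71.3% did.

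Sorting the thinned cells by pair gave 4 groups. At D22, 684 cells held DLX1 or DLX2 without DLX5 and DLX6, 208 held genes of both pairs, 55 held DLX5 or DLX6 alone and 8454 held neither. At D24 the same groups had 82, 231, 167 and 7661 cells, and at D26 they had 239, 993, 388 and 8198. The group with DLX1 or DLX2 alone was thus the largest of the 3 DLX groups at D22 and the smallest at D24 and D26.

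At D22 cells with DLX1 or DLX2 alone differed from cells with both pairs in genes of stage. GSX2, a homeobox factor of subpallial progenitors, was at 61.6 CPM in cells with DLX1 or DLX2 alone, 72.3 CPM in cells with both pairs and 1.18 CPM in cells with DLX5 or DLX6 alone, against 4.60 CPM in the rest. MKI67, a gene of dividing cells, was at 174 CPM with DLX1 or DLX2 alone and 55.1 CPM with both pairs, and STMN2, which is made by neurons, was at 468 and 1545 CPM. GAD2 was at 4.28 CPM with DLX1 or DLX2 alone and 156 CPM with both pairs. Cells with both pairs thus had less MKI67 and more STMN2 and GAD2 than cells with DLX1 or DLX2 alone, at similar levels of GSX2. By class, 78.8% of the D22 cells with both pairs were NNP-like and 14.9% GnRH-GABA-like, and at D24 and D26 93.9% and 98.3% were GnRH-GABA-like. At D22 cluster 8 of the GnRH-GABA-like class was at 5930 CPM of STMN2 and 329 CPM of GAD2. The part of such cells in the values of the group with both pairs was not tested.

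GNRH1 lay largely within the DLX cells. At D22 it was at 1.78 CPM in cells with DLX1 or DLX2 alone, 242 CPM in cells with both pairs and 0.641 CPM in cells with neither pair. At D24 it was at 16137, 15078 and 14299 CPM in cells with DLX1 or DLX2 alone, both pairs and DLX5 or DLX6 alone, against 201 CPM in cells with neither, and at D26 at 11154, 16429 and 18162 against 506 CPM. From D24 on, any of the pairs marked cells with GNRH1 above the level of the rest.

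The share of cells with a DLX UMI went up with the GNRH1 UMIs of the cell. GNRH1 reached 1189 UMIs in 1 cell at D24 and 1542 at D26, and at D26 36.3% of Glut-like cells held a GNRH1 UMI. At D24, 2.54% of the 7797 cells without GNRH1 held any of the 5 DLX genes, 4.21% with 1 UMI, 17.3% with 2 to 4, 52.6% with 5 to 19, 86.0% with 20 to 99 and 96.4% (93.3% to 98.3%) of the 250 cells with 100 or more. At D26 the shares were 7.06%, 9.07%, 18.7%, 60.5%, 85.2% and 96.6% in the same bins. Cells with 1 GNRH1 UMI were close to cells with none, and the share was higher in each further bin. At D22 8 cells held 20 or more GNRH1 UMIs, and all 8 held a DLX gene.

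DLX5 was the gene most often seen in the cells with 100 or more GNRH1 UMIs, with 80.4% at D24 and 82.2% at D26. DLX1 was seen in 58.4% and 66.4% of them, DLX2 in 46.4% and 64.2%, DLX6 in 41.2% and 69.1% and DLX6-AS1 in 74.4% and 61.2%. From D24 to D26 DLX6 was thus seen more and DLX6-AS1 less often in these cells. In the top bin of D26 15.2% of the cells had a high doublet score, against 5.51% in the bin without GNRH1. Without the cells of high score, 92.6% of the D26 cells with 20 or more GNRH1 UMIs held a DLX gene, against 93.1% with them.

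**Figure D4:**
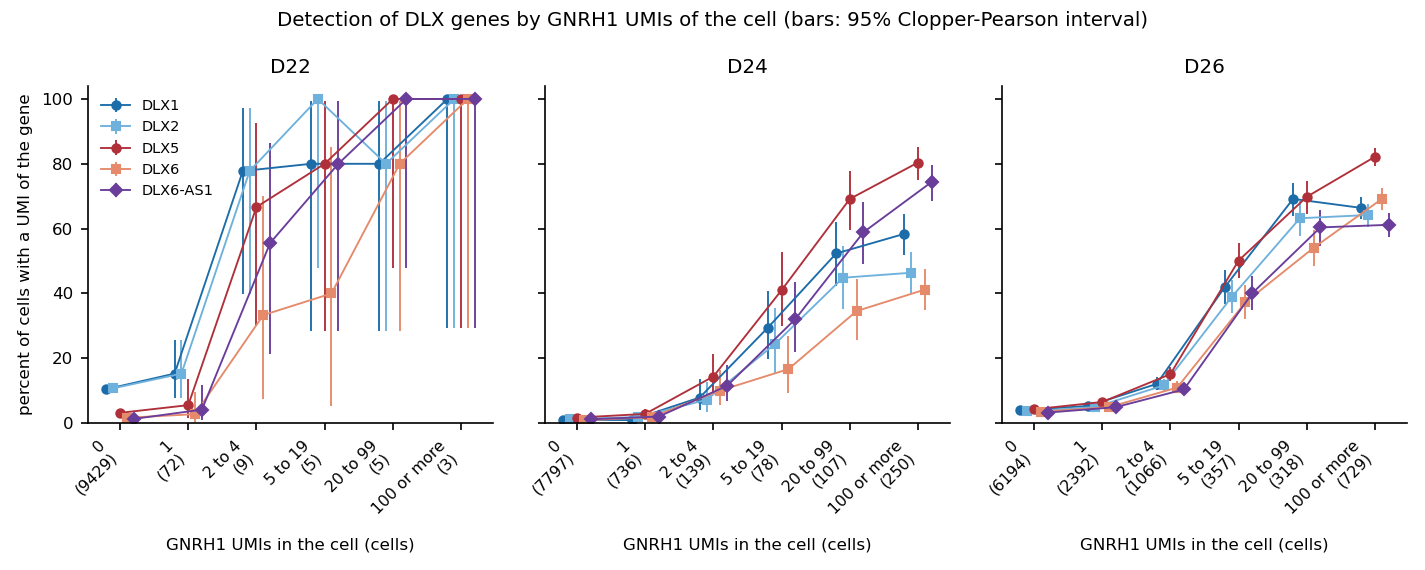
Percent of cells with a UMI of each of 5 genes (vertical) by the number of GNRH1 UMIs in the cell (horizontal, cells in brackets) at D22, D24 and D26, with 95% Clopper-Pearson intervals. At D24 and D26 no gene exceeded 6.52% of cells in the bins of 0 and 1 GNRH1 UMI, and DLX5 reached 80.4% and 82.2% in the highest bin.

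In the reverse direction the overlap was partial. Of the cells with any of the 5 genes, 35 of 1435 (2.44%) held GNRH1 at D22, 429 of 627 (68.4%) at D24 and 1607 of 2044 (78.6%) at D26. In these cells 0.557%, 53.1% and 47.7% held 20 or more UMIs of it. Of the cells with none of the 5 genes, 0.729%, 10.4% and 36.1% held GNRH1 on these days, and at D24 and D26 0.283% and 0.799% held 20 or more UMIs. The cells with any of the 5 genes carried 91.9%, 95.2% and 95.9% of all GNRH1 UMIs of the day. At D22 this share was 701 UMIs in 35 cells, of which 8 held 20 or more. Cells with 20 or more GNRH1 UMIs and none of the 5 DLX genes numbered 0, 24 and 72.

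DLX cells without a GNRH1 UMI were 1400 at D22, 198 at D24 and 437 at D26. At D22 64.4% of them were NNP-like and 28.1% PNP-like. At D24 and D26 55.6% and 59.7% were GnRH-GABA-like and 29.8% and 35.9% Glut-like. DLX without GNRH1 was thus a precursor pattern at D22 and mostly a pattern of the GnRH-GABA-like class later.

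Within that class at D26 the cells with most GNRH1 did not have more DLX RNA. To keep GNRH1 itself from diluting the rest, levels here are CPM over the UMIs other than GNRH1. At D26 DLX5 was at 339 CPM (324 to 355) in the 591 cells with 0 to 4 GNRH1 UMIs, 305 CPM in the 458 cells with 5 to 99 and 248 CPM (237 to 259) in the 704 cells with 100 or more. DLX1 was at 248, 275 and 186 CPM, DLX2 at 177, 179 and 128 CPM and DLX6 at 172, 157 and 144 CPM in these bins. DLX6-AS1 was at 329, 392 and 238 CPM. All 5 genes were lowest in the cells with most GNRH1, although the intervals of DLX6 in the upper bins overlapped.

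At D24 the same bins held 159, 128 and 244 cells. DLX5 was at 313, 237 and 228 CPM and DLX2 at 133, 96.9 and 92.4 CPM, DLX6 was at 106, 59.99 and 71.1 CPM, while DLX1 (142, 138 and 147 CPM) and DLX6-AS1 (401, 381 and 368 CPM) had overlapping intervals. At D22 few cells could be compared. DLX6-AS1 was at 3240 CPM (2775 to 3761) in the 5 cells with 20 to 99 GNRH1 UMIs. It was at 1475 CPM (1344 to 1615) in the 28 cells of the class with 0 to 4 and at 1106 CPM (761 to 1553) in the 3 cells with 100 or more. These intervals do not cover the spread between cells, and 1 cell of D22 held 63 UMIs of DLX6-AS1. The share of cells with DLX5 was 83.2%, 83.6% and 83.8% over the bins at D26, so the share was alike over the bins, although the cells with most GNRH1 were deeper (medians of 8502, 8860.5 and 10090.5 UMIs).

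Other genes of the class took several courses over these bins at D26. GAD2 was at 267, 181 and 160 CPM and GAD1, the other GABA-synthesising enzyme, at 23.6, 20.8 and 8.97 CPM. SLC32A1, the vesicular transporter of GABA, was at 64.5, 57.2 and 54.0 CPM. ISL1, a LIM-homeobox factor, was at 94.2, 119 and 162 CPM. The enzymes of GABA synthesis were thus lower, and ISL1 higher, in the D26 cells with most GNRH1. At D24 ISL1 was at 145, 198 and 112 CPM, so its course was not the same on both days.

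**Figure D5:**
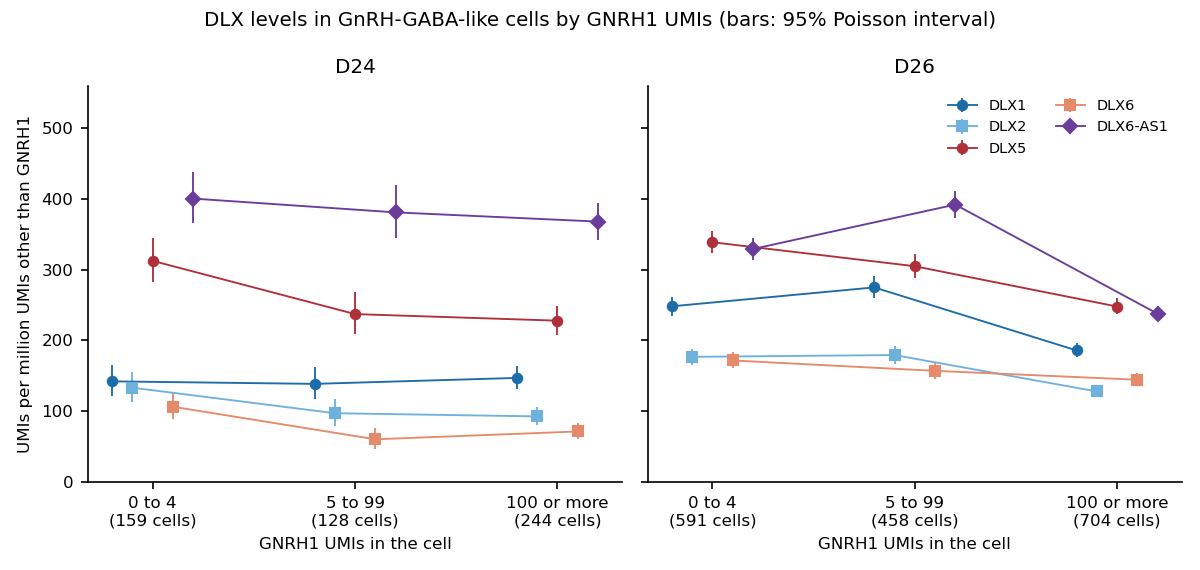
CPM of 5 genes over the UMIs other than GNRH1 (vertical) in GnRH-GABA-like cells by their GNRH1 UMIs (horizontal, cells in brackets) at D24 and D26, with 95% Poisson intervals as bars. At D26 DLX5 went from 339 to 248 CPM and DLX1 from 248 to 186 CPM between the lowest and the highest bin.

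The genes most like each DLX gene over the 11056 cells of D26 were mainly other DLX genes. Likeness was Pearson's r of log1p(UMIs per 10000) among 12731 genes with a UMI in at least 1% of cells, and is a description, since the cells share 1 library and depth. DLX2 was the gene most like DLX1 (r 0.73), and it had r 0.61 with it at D24 and 0.79 at D22. DLX6-AS1 (0.71), DLX6 (0.70), DLX1 (0.67) and DLX2 (0.66) led the list of DLX5, which also held RASD1, GAD2, ECEL1, GNRH1 and LINC01551 (0.62 to 0.53). The list of DLX2 held, among others, DLX1, DLX5, DLX6-AS1, RASD1, DLX6, ECEL1, GAD2, MEF2C and SCGN (0.73 to 0.48). RASD1, ECEL1 and SCGN are also among the markers that named the class.

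These partners changed with the day. MEF2C, which acts in neuronal maturation, had r -0.04 with DLX2 at D22 and 0.49 at D26. GAD2 was close to DLX5 on each day, with r 0.67, 0.69 and 0.61 at D22, D24 and D26. At D22 DLX1 had r 0.79 with DLX2, 0.53 with DLX5 and 0.28 with DLX6-AS1, and at D26 0.73, 0.67 and 0.67.

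Other genes of the subpallial and GABAergic programme moved in several directions. Of the 18 genes of this list, 17 had more than 3 UMIs at D22 or D24, and 7 were at least 2-fold higher and 8 lower at D24 (median log2 ratio -0.22, against -0.11 for all genes), where 15.3% and 21.1% of all genes were. From D24 to D26, 8 of 16 were higher and 1 lower (median 1.06, against 0.29), where 14.4% and 8.15% of all genes were. The progenitor factor GSX2 was at 10.1 CPM at D22 and 0.271 CPM at D24. The GABA genes GAD2 (3.93, 20.5 and 36.8 CPM) and SLC32A1 (1.26, 3.28 and 10.5 CPM) were higher on each later day, as the DLX genes of chromosome 7 were. LHX6 and NKX2-1, which mark the medial ganglionic eminence and its interneurons, had at most 3 and 83 UMIs in any late library.

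With XAV939 at D10, 5 of 13 genes of this list were higher and 1 lower (median log2 ratio 0.76, against -0.02 for all genes), where 5.43% and 10.6% of all genes were. SP9, a zinc-finger factor of GABAergic lineages, was at 0.585 against 0.0508 CPM. At D5, 1 of 13 was higher and 4 were lower (median log2 ratio 0.02, against 0.05 for all genes), where 5.75% and 5.54% of all genes were.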

How the data were processed

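The authors deposited raw UMI counts per gene and cell barcode, made with Cell Ranger against GRCh38 (3.1 in the submitters' processing notes, 3.1.0 in the headers of D22 to D26 and 6.1.2 in those of the tagged pool), and whether strand was used is not given in the sources used here. Cells were kept by the study's limits on UMIs, genes, complexity and mitochondrial share (for D22 to D26, at least 1500 UMIs, 1000 genes, a complexity of 0.82 and at most 20% mitochondrial), except that the D0 complexity limit was not applied because it left 1 cell. Counts were summed per condition or class and given as CPM (per 1000000 UMIs) with exact Poisson intervals, shares with Clopper-Pearson intervals and ratios with exact binomial intervals at 95%. Intervals assume independent molecules. Genes with more than 3 UMIs in either condition entered a comparison, and 2-fold counted as a call. Late cells were clustered with Leiden at resolution 0.5 on 2000 variable genes and 30 principal components (scanpy 1.11.5) and named from 10 markers a class. Cells with a doublet score over 0.25 (1.78% to 7.46% of a condition) were kept. The naming limits, this score and the CCAAT motif were chosen after values were seen. Named genes are the members, the fixed lists and the 10 genes most like each member. Some genes of these lists are counted but not reported here by name. The members and lists were chosen with earlier results of these data known, and the class markers come from the study's tables on these libraries. On simulated Poisson counts the ratio intervals of D26 over D22 held the true ratio in 97.5% of 200 changed and 96% of 2000 unchanged genes. For D10_XAV939 over D10_dSMADi both shares were 95.5%. These counts follow the model that the intervals assume. The shares therefore check the calculation only, not the spread of UMIs over cells or between libraries.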

Additional observations from a re-analysis of the deposited data

How the results depend on the processing

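None of the log2 ratios of library sums between conditions changed sign without the cell filter, with a stricter filter, without high doublet scores or with other scaling. The order of days did change for shares of co-detection, among them that of DLX6 cells with DLX5 was highest at D26 as counted (86.0%, 86.3% and 87.0%) and lowest there after thinning, that of DLX6-AS1 cells with DLX5 was highest at D26 as counted (87.3%) and at D22 after thinning (85.6%), and that of DLX1 cells with DLX2 was higher at D26 than at D22 as counted (73.3% and 70.9%) and lower with a limit of 2 UMIs. The bins of GNRH1 UMIs, the likeness lists and the log2 ratios inside and outside the GnRH-GABA-like class were not run under other settings. No paired analysis was possible because each condition had 1 sample, and no replicate could be left out. The 7 genes summed were at 84.7, 67.1 and 206 CPM at D22, D24 and D26, and at 87.6, 70.1 and 216 CPM without GNRH1 and mitochondrial UMIs. Without high doublet scores D26 was at 201 CPM. Median-ratio size factors moved 10 of 39 ratio results, with log2 shifts of -0.27 for D26 over D24 and -0.24 for D26 over D22. The share of DLX1 cells with DLX2 was 58.9%, 43.6% and 59.3% after thinning to 5000 UMIs and 66.2%, 40.7% and 56.2% with a limit of 2 UMIs at D22, D24 and D26. The share of DLX6 cells with DLX5 was 78.6%, 76.1% and 73.4% after thinning, and 74.0% and 76.1% at D24 and D26 with a limit of 2 UMIs. Cells with 20 or more GNRH1 UMIs held one of the 5 DLX genes in 93.3% and 93.1% at D24 and D26, in 79.0% and 83.6% with a limit of 2 UMIs, and at D26 in 91.0% without a cell filter and 90.7% after thinning. The D22 share of DLX1 UMIs in NNP-like cells was 81.4% at resolution 0.25, 74.9% at 1.0 and 79.6% without high doublet scores, and that of DLX5 was 77.2% at 0.25. The GnRH-GABA-like share of DLX5 UMIs at D24 was 87.1% at resolution 0.25 and 94.7% without high doublet scores, where DLX1 was at 94.5%. At D26 DLX1 and DLX5 were at 93.8% and 95.8% at resolution 0.25 and at 95.8% and 97.1% without high doublet scores. The causes of these moves were not tested. With 0 to 58 UMIs, early values of the members limit any comparison to large ratios.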

Other observations

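Of 12 protein-coding neighbours, 11 had more than 3 UMIs at D22 or D26, and 4 were at least 2-fold higher and 4 lower at D26 (median log2 ratio -0.14, against 0.20 for all genes), where 22.5% and 19.4% of all genes were. TAC1, which encodes the precursor of substance P and lies on the DLX5 side of its pair, was at 0.759, 10.3 and 77.9 CPM at D22, D24 and D26 (log2 ratio of D26 over D22 6.68). In the thinned D26 cells it was at 421 CPM in cells with DLX5 or DLX6 alone, 142 CPM in cells with both pairs and 157 CPM in cells with DLX1 or DLX2 alone. Its correlation with DLX5 over D26 cells was weak (r 0.16). In GnRH-GABA-like cells of D26 TAC1 was seen in 27.1%, 33.6% and 56.5% of cells with 0 to 4, 5 to 99 and 100 or more GNRH1 UMIs, while its level was 261, 194 and 249 CPM over the UMIs other than GNRH1 and the median depth was highest in the last bin (10090.5 against 8502 UMIs in the lowest). ITGA6, a laminin receptor subunit beyond DLX2, was lower at D26 than at D22 (log2 ratio -2.31).

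The 24 cells of D24 and 72 cells of D26 with 20 or more GNRH1 UMIs and none of the 5 DLX genes were of mixed class. At D26, 36 were Glut-like, 20 GnRH-GABA-like and 16 unnamed. At D22, 28 of the 40 GnRH-GABA-like cells had 0 to 4 GNRH1 UMIs, and these had 1475 CPM of DLX6-AS1 and 647 CPM of DLX5.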
